A study of Mus musculus with 43 samples.

Results

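The 10 genes described here are 6 carbonic anhydrases (Car1, Car2, Car4, Car8, Car9 and Car12) and 4 aquaporins (Aqp1, Aqp3, Aqp4 and Aqp11). They were matched by symbol and all 10 were found among the 23951 genes of the 3 bulk RNA-seq tables and among the 54307 gene rows of the 7 single-cell libraries. They were chosen by their FPKM and UMI levels in these same libraries across irradiation, TGFB1, day and time. Their levels, changes and adjusted p are therefore a description of these genes, and none of them is evidence for the group as a whole.

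Carbonic anhydrases convert carbon dioxide and water to bicarbonate and protons, and in the gut epithelium they supply the ions exchanged in salt absorption, bicarbonate secretion and pH control. Some work in the cytosol and others face the outside of the cell from an anchor in the membrane. Aquaporins are membrane channels for water, and one branch of the family, the aquaglyceroporins, also carries glycerol.

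The samples were cultures of primary intestinal organoids from wild-type C57BL/6 mice and sorted mouse crypt cells. Bulk RNA-seq covered 3 vehicle and 3 TGFB1 libraries in each of 3 conditions. Cultures left without irradiation were harvested at day 7 (D7 non-IR). Cultures irradiated with 4 Gy at day 4 were harvested either at day 7 (D7 IR) or at day 11 (D11 IR). TGFB1, a growth factor of the epithelial injury response, was given at 2 ng/mL on day 6 for 24 h, so the D11 IR libraries were taken days after the treatment had ended. Single-cell libraries came from organoids irradiated with 4 Gy on day 4 and collected at day 8, with vehicle (called 0 h) or 1 ng/mL TGFB1 for 6, 15 or 24 h, 1 library each. The other single-cell libraries were Ki67-RFP+ crypt cells from the proximal small intestine of Mki67tm1.1Cle/J mice, which mark cycling cells with RFP, from 1 non-irradiated library and 2 taken 56 h after 12 Gy. Non-irradiated crypts passed a finer strainer than irradiated ones, per the labels, and this cannot be told apart from irradiation.

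Summed FPKM ran from 447728 to 621996 over the 18 bulk libraries, between 11040 and 11361 genes exceeded 1 FPKM, and the read depth is unknown. The organoid single-cell libraries kept 2218 to 4283 cells with median depths of 6709 to 10441 UMIs, and the crypt libraries kept 699 to 1846 cells with medians of 11968.5 to 14399 UMIs. Of 21 pairs of single-cell libraries, 19 shared no cell barcode and 2 shared 1. Among markers of other cell types, the summed FPKM of 6 erythroid genes was at most 0.290 and that of 5 endothelial genes at most 0.308 in every bulk library. No colon marker of 4 reached the mean of 1 FPKM needed for a test. A list of 6 mesenchymal genes summed to 3.04 to 4.76 FPKM in D7 IR TGFB1 libraries, against 0.374 to 0.577 in D7 IR vehicle libraries. A list of 10 gastric genes ran from 4.40 FPKM in D7 non-IR vehicle to 14.4 FPKM in D11 IR TGFB1 libraries. The immune list reached 89.7 FPKM in D7 non-IR TGFB1 libraries, nearly all of it Cd74, while Ptprc, the marker of all leukocytes, was at most 0.0584 FPKM there. Nothing in the labels says that the 3 libraries of a group came from separate cultures or mice, so p-values measure only the spread between these libraries, which may be technical.

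Car1 and Car2 are cytosolic enzymes. Car1 was listed at 0 FPKM in all 18 bulk libraries and had 0 UMIs in all 7 single-cell libraries. Car2, the fast cytosolic isoform, was measured everywhere. In D7 non-IR organoids its vehicle libraries held 26.3, 25.9 and 23.7 FPKM and its TGFB1 libraries 35.66, 39.57 and 39.29 FPKM. All TGFB1 libraries lay above all vehicle libraries, 1.51-fold higher in the mean (log2 change of FPKM + 1 0.58, limma adjusted p 2.98e-06). In D7 IR organoids Car2 was lower at the start, with 7.78, 7.63 and 7.53 FPKM under vehicle, and rose to 12.1, 13.8 and 12.9 FPKM under TGFB1 (log2 change 0.69, limma adjusted p 1.44e-06). At D11 IR the vehicle libraries (17.998, 19.6 and 16.4 FPKM) and the TGFB1 libraries (16.0, 20.3 and 14.5 FPKM) overlapped, and the change did not pass (log2 change −0.09, limma adjusted p 0.509). The TGFB1 effect on Car2 was lower at D11 than at D7 after irradiation (difference −0.78, limma adjusted p 0.000292).

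Car8 is a carbonic anhydrase-related protein that lacks the catalytic activity of the family. It was a gene of low level that rose with TGFB1 in each table. Its vehicle and TGFB1 libraries held 3.20, 3.54 and 3.38 against 5.08, 5.24 and 5.59 FPKM in D7 non-IR, where the log2 change was 0.53 (limma adjusted p 2.61e-05). In D7 IR they held 1.78, 1.75 and 1.87 against 5.43, 4.67 and 6.11 FPKM, a log2 change of 1.19 (limma adjusted p 5.28e-07). At D11 IR they held 2.81, 2.48 and 1.72 against 8.88, 8.28 and 8.39 FPKM, a log2 change of 1.53 (limma adjusted p 5.98e-06). No TGFB1 library overlapped a vehicle library of its table. The rise was larger with than without irradiation at D7 (difference 0.66, limma adjusted p 0.000140), and between D7 and D11 the difference was 0.34 (95% interval −0.01 to 0.69, limma adjusted p 0.0843, from 0.0203 to 0.205 over the alternatives). It passed under quantile normalization (0.45, limma adjusted p 0.0203) and with all 18 libraries in 1 fit (0.34, limma adjusted p 0.0451).

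In these bulk libraries fewer cells of a type and less RNA per cell cannot be told apart. This holds for each bulk result.

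Car4, Car9 and Car12 face the outside of the cell: Car4 through a lipid anchor, Car9 and Car12 as transmembrane proteins, and Car9 is a classical target of the hypoxia response. Car9 had the highest mean FPKM of the 10 genes in each of the 6 bulk groups, although at D11 IR vehicle its libraries overlapped those of Aqp1. Its response to TGFB1 changed direction with irradiation. Without irradiation it rose from 149, 151 and 156 FPKM under vehicle to 184, 189 and 189 FPKM under TGFB1 (log2 change 0.30, limma adjusted p 7.94e-06). In D7 IR organoids it fell from 151, 141 and 144 FPKM to 93.2, 96.1 and 86.3 FPKM (log2 change −0.66, limma adjusted p 3.47e-07). At D11 IR Car9 fell from 136, 168 and 157 FPKM to 55.9, 75.1 and 39.6 FPKM (log2 change −1.46, limma adjusted p 0.000622). Vehicle levels overlapped between the conditions, and vehicle and TGFB1 did not overlap in any table. The difference of the 2 effects at D7 was −0.96 (limma adjusted p 9.66e-09), and that between D11 and D7 after irradiation was −0.81 (limma adjusted p 0.0126). With all 18 libraries in 1 limma fit the change without irradiation was the same size (0.30) but did not pass (adjusted p 0.0922, where the alternatives ran from 5.55e-06 to 0.0922).

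Car12 fell with TGFB1 mainly in D7 IR organoids, from 9.63, 8.20 and 9.34 FPKM to 3.68, 4.00 and 2.87 FPKM (log2 change −1.16, limma adjusted p 1.55e-06). Without irradiation it went from 15.9, 15.5 and 16.0 FPKM to 13.6, 13.7 and 14.8 FPKM, a small change (log2 −0.16, limma adjusted p 0.0109) that kept its size with all 18 libraries in 1 limma fit but did not pass there (adjusted p 0.190, where the alternatives ran from 0.00562 to 0.190). At D11 IR the libraries overlapped, with 13.7, 10.3 and 9.89 FPKM under vehicle and 12.0, 11.5 and 12.0 FPKM under TGFB1 (log2 change 0.07, limma adjusted p 0.609). The effect was lower with than without irradiation at D7 (difference −1.004, limma adjusted p 5.29e-06) and higher at D11 than at D7 (difference 1.23, limma adjusted p 1.65e-05). The summed FPKM of 10 cycling markers moved alongside Car12: 586 to 594 with vehicle and 458 to 485 with TGFB1 in D7 non-IR, then 492 to 514 with vehicle and 163 to 189 with TGFB1 in D7 IR. At D11 IR the list held 493 to 562 with vehicle and 528 to 553 with TGFB1. Their part in the Car12 result was not tested.

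The promoters of Car9 and Car12 are shown with that of Aqp1 because the TGFB1 response of Car9 and Car12 differed with irradiation, while Aqp1 fell in all 3 conditions. The sequences are the 250 bases before the start of each gene, from RefSeq on GRCm38.p6, in the direction of transcription. RefSeq start windows were matched for 6 of the 10 genes, with none used for Car1, Car2, Car8 and Aqp4. Capitals mark the core of the hypoxia response element (ACGTG, or CACGT on the other strand) and the SMAD box (CAGAC, or GTCTG on the other strand) wherever either occurs. The capitals are CAGAC and then CACGT in Car9, and CAGAC alone in Car12 and in Aqp1. The Car9 window is chr4:43506776-43507025 (+ strand), the Car12 window chr9:66713436-66713685 (+ strand) and the Aqp1 window chr6:55336049-55336298 (+ strand).
Car9: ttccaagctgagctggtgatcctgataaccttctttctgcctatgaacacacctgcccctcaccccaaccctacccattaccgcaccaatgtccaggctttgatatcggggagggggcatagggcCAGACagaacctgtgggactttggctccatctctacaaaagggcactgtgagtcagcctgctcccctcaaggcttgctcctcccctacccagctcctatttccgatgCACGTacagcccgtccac
Car12: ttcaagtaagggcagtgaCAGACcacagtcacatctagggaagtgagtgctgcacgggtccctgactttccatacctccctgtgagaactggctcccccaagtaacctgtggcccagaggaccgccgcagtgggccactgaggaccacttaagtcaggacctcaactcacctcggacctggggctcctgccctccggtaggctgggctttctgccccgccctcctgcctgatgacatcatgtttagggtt
Aqp1: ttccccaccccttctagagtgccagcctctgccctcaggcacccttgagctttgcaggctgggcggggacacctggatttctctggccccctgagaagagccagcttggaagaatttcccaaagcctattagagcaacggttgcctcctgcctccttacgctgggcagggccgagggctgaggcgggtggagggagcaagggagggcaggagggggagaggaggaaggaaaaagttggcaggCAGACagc
The Car9 window held 1 hypoxia core, starting 18 bases before the gene start, and the Car12, Car4, Aqp1, Aqp3 and Aqp11 windows held none. Among 27025 promoter windows of this length, 16.6% held the core on either strand. A SMAD box was present once each in the Car9, Car12, Car4 and Aqp1 windows and not in those of Aqp3 and Aqp11, and 42.1% of all windows held one. These matches describe letters and not occupied sites.

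Beside Car9, a list of 20 hypoxia genes was read in the same fits. Without irradiation 9 of the 20 were called higher and 5 lower with TGFB1 (median log2 change 0.09, against −0.02 over all genes tested, of which 68.2% were called). In D7 IR organoids 2 were higher and 17 lower (median −0.85, against −0.03 over all genes, 75.5% of them called). At D11 IR 1 was higher and 7 lower, 8 of 20 and so a smaller share than the 63.9% of all genes called (median −0.67, against 0.01). The difference of effects with irradiation at D7 was called lower in 18 of the 20 and higher in 1, where 53.1% of all genes were called. Ndufa4l2, a mitochondrial protein induced by low oxygen, fell from a mean of 9.91 to 1.52 FPKM in D7 IR (log2 change −2.14, limma adjusted p 6.80e-07) and from 28.4 to 1.05 FPKM at D11 IR. Pdk1, a kinase that slows pyruvate oxidation, fell from 40.6 to 10.9 FPKM in D7 IR (log2 change −1.81, limma adjusted p 9.26e-09). Bnip3, a mitophagy receptor, fell from 27.8 to 9.37 FPKM in D7 IR (log2 change −1.48, limma adjusted p 7.54e-07). Slc2a1, the glucose transporter GLUT1, rose without irradiation from 120.4 to 209 FPKM (log2 change 0.79, limma adjusted p 1.02e-08). Pfkfb4, of the same list, went the other way there, from 11.5 to 6.65 FPKM (log2 change −0.71, limma adjusted p 3.90e-07). The list was drawn up with the direction of Car9 in the bulk tables open to view, and its counts stand beside Car9 as a description.

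**Figure D1:**
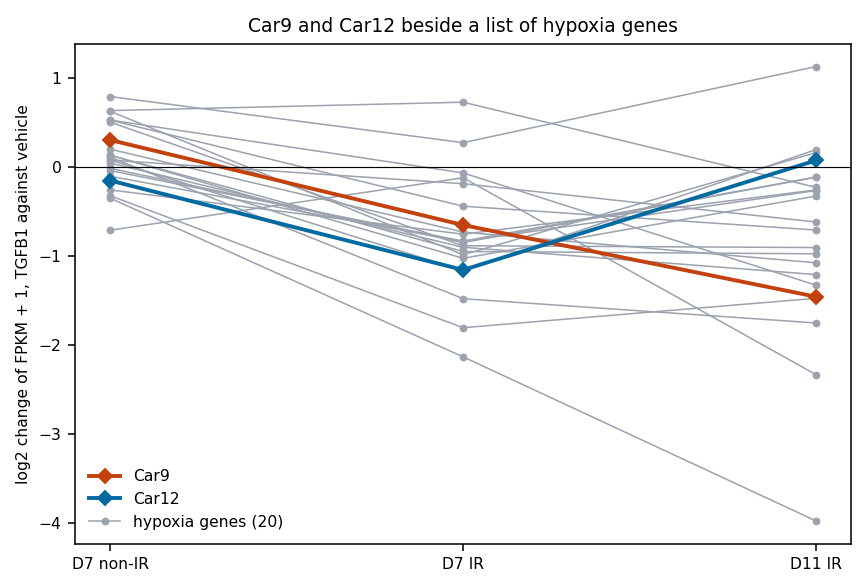
Log2 change of FPKM + 1 with TGFB1 (vertical axis) of Car9, Car12 and 20 hypoxia genes in the 3 bulk conditions (horizontal axis). Each line joins 1 gene. Car9 went from 0.30 without irradiation to −0.66 at D7 and −1.46 at D11 after irradiation, while Car12 was lowest at D7 IR (−1.16) and near 0 at D11 IR.

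Car4 was near the floor of the bulk tables and passed the filter for a test in D7 IR alone, through its vehicle libraries only. There its vehicle libraries held 2.32, 2.43 and 1.97 FPKM and its TGFB1 libraries 0.127, 0.0609 and 0.124 FPKM. The log2 change of FPKM + 1 was −1.55 (limma adjusted p 1.20e-07), a scale that understates low genes, and the ratio of the means was 21.5. In D7 non-IR the vehicle libraries held 0.561, 0.697 and 0.667 FPKM and the TGFB1 libraries 0, 0.0456 and 0.0930 FPKM. At D11 IR they held 0.422, 0.967 and 0.882 against 0.0249, 0.100 and 0 FPKM. In all 3 conditions every TGFB1 library lay below every vehicle library.

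Aqp1 and Aqp4 are water channels. Aqp1 is abundant in endothelium and red cells, and Aqp4 is the main water channel of astrocytes and is also found in the base of the gut epithelium. Both fell with TGFB1 in every bulk condition. Aqp1 held 66.0, 60.9 and 62.4 FPKM under vehicle and 14.1, 11.8 and 14.4 FPKM under TGFB1 in D7 non-IR (log2 change −2.16, limma adjusted p 1.07e-09). It held 39.3, 39.3 and 41.5 against 9.62, 9.06 and 8.40 FPKM in D7 IR (log2 change −2.03, limma adjusted p 4.07e-10). At D11 IR Aqp1 held 145, 140.1 and 131 against 29.7, 29.1 and 24.2 FPKM (log2 change −2.29, limma adjusted p 7.37e-08). The groups were far apart in each table, with vehicle 4.70, 4.43 and 5.01 times the TGFB1 mean. The effect of TGFB1 on Aqp1 differed by 0.12 with irradiation at D7 (95% interval −0.08 to 0.32, limma adjusted p 0.285, from 0.0277 to 0.685 over the alternatives, the lowest under quantile normalization with a difference of 0.27) and by −0.25 between D11 and D7 (95% interval −0.48 to −0.02, limma adjusted p 0.0527, from 0.0128 to 0.161 over the alternatives).

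Aqp4 fell further after irradiation than without it. In D7 non-IR it went from 30.9, 30.3 and 31.1 FPKM to 7.66, 7.83 and 8.07 FPKM (log2 change −1.84, limma adjusted p 5.07e-11). In D7 IR it went from 20.1, 18.1 and 19.3 FPKM to 1.39, 1.77 and 1.12 FPKM (log2 change −3.06, limma adjusted p 9.64e-10). At D11 IR it went from 27.1, 22.5 and 17.996 FPKM to 3.11, 3.36 and 2.25 FPKM (log2 change −2.58, limma adjusted p 9.47e-07). No library of one treatment overlapped the other. The vehicle mean was 3.92, 13.5 and 7.75 times the TGFB1 mean. The difference of effects with irradiation at D7 was −1.22 (limma adjusted p 3.93e-07), and that between D11 and D7 was 0.48 (95% interval 0.04 to 0.92, limma adjusted p 0.0515, from 0.0114 to 0.133 over the alternatives). The summed FPKM of 8 stem markers went from 904 to 989 under vehicle to 616 to 641 under TGFB1 in D7 non-IR and from 980 to 1017 to 424 to 511 in D7 IR. At D11 IR it was 587 to 753 under vehicle and 751 to 913 under TGFB1, which overlap. The part of these markers in the Aqp1 and Aqp4 values was not tested.

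Aqp3 is the aquaglyceroporin of the group, a basolateral channel of water and glycerol. Its level differed mainly between conditions. In D7 non-IR organoids it was close to 0, with 0.0410, 0.254 and 0.116 FPKM under vehicle and 0.0392, 0.0202 and 0.0416 FPKM under TGFB1. In D7 IR it held 11.5, 11.1 and 10.9 FPKM under vehicle and 10.7, 12.2 and 9.82 FPKM under TGFB1, with no detectable change (log2 −0.04, 95% interval −0.20 to 0.12, limma adjusted p 0.643). At D11 IR it was low under vehicle, with 0.527, 0.345 and 0.815 FPKM, and higher under TGFB1, with 3.02, 2.65 and 2.39 FPKM (log2 change 1.25, limma adjusted p 3.09e-05). Aqp3 passed the filter for that test through its TGFB1 libraries alone. The difference between D11 and D7 was 1.28 (limma adjusted p 6.89e-06).

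Aqp11, an aquaporin of intracellular membranes, fell with TGFB1 in each condition. It went from 34.6, 34.1 and 32.3 FPKM to 20.1, 19.7 and 19.8 FPKM in D7 non-IR (log2 change −0.73, limma adjusted p 4.21e-08). It went from 49.6, 49.0 and 46.7 FPKM to 33.4, 39.1 and 34.1 FPKM in D7 IR (log2 change −0.44, limma adjusted p 5.58e-05). At D11 IR Aqp11 went from 27.4, 26.1 and 36.6 FPKM to 11.9, 14.9 and 13.3 FPKM (log2 change −1.10, limma adjusted p 5.72e-05). The summed FPKM of 12 enterocyte markers fell from 3488 to 3632 down to 1541 to 1678 in D7 non-IR and from 3735 to 6658 down to 2315 to 2729 at D11 IR, but went from 14506 to 15507 up to 21275 to 22131 in D7 IR, where Aqp11 also fell. Their part in the Aqp11 and Aqp3 values was not tested.

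**Figure D2:**
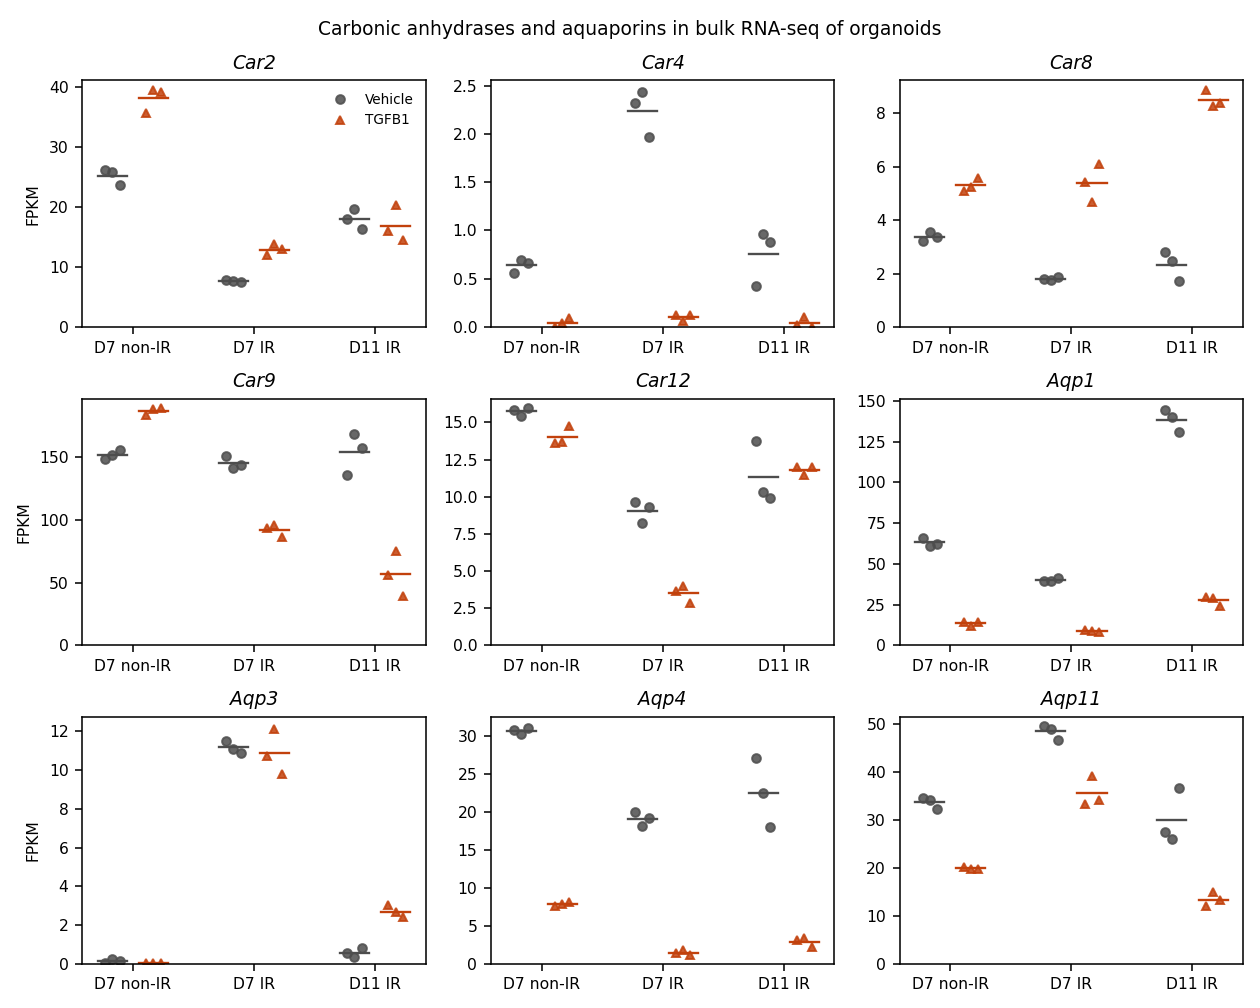
FPKM (vertical axis, from 0) of 9 genes in each bulk library, by condition (horizontal axis), with circles for vehicle, triangles for TGFB1 and a bar at the mean of 3. Aqp1 and Aqp4 were lower with TGFB1 in all 3 conditions, Car9 was higher with TGFB1 in D7 non-IR and lower in D7 IR and D11 IR, and Aqp3 was near 0 in D7 non-IR.

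Counted over the genes, limma called 7 of the 7 members that passed the filter in D7 non-IR, 3 higher and 4 lower, where 68.2% of all genes were called (33.3% higher and 34.9% lower). In D7 IR it called 8 of 9, 2 higher and 6 lower, against 75.5% of all genes (35.8% higher and 39.7% lower). At D11 IR it called 6 of 8, 2 higher and 4 lower, against 63.9% (32.3% higher and 31.6% lower). The share called was above that of all genes in each condition. It rests on 7 to 9 genes chosen with these data known, so it describes these genes only. The filter kept Car4 in D7 IR through its vehicle libraries alone and Aqp3 at D11 IR through its TGFB1 libraries alone. The median log2 change of the members tested was −0.16, −0.66 and −0.60 in the 3 conditions, and that of all genes tested was −0.02, −0.03 and 0.01. Changes of at least 2-fold were called for 2 of 7 members in D7 non-IR (8.44% of all genes), 5 of 9 in D7 IR (13.2%) and 6 of 8 at D11 IR (13.7%). The difference of effects with irradiation was called in 5 of 8 members (53.1% of all genes), and that between days in 5 of 8 (64.5%). It reached 2-fold in 2 members for irradiation (4.38% of all genes) and in 2 for day (16.4%). These 2 differences share the D7 IR libraries.

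**Figure D3:**
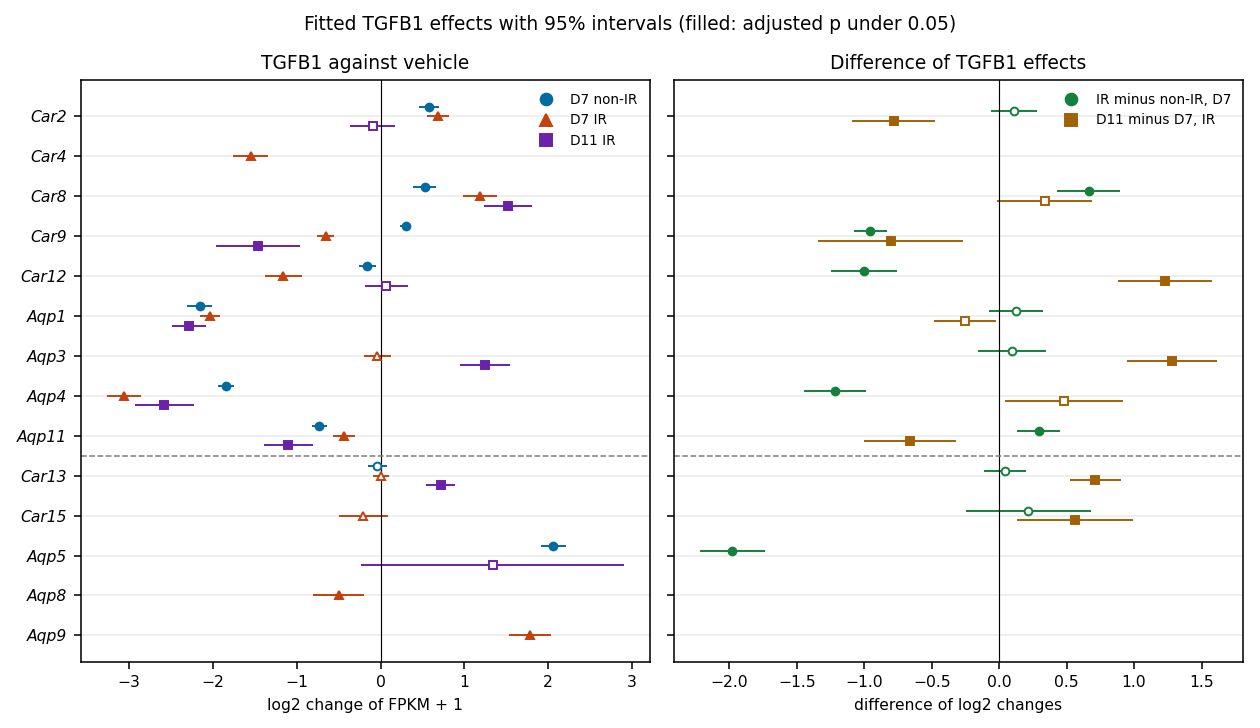
Fitted log2 changes of FPKM + 1 with TGFB1 (left, horizontal axis) and differences between these effects (right) with 95% intervals, for the 9 members tested in any table and, under the dashed line, the other family genes tested. Filled symbols passed an adjusted p of 0.05. Aqp1 lay near −2 in all 3 conditions, and Car9 and Car12 had negative differences with irradiation.

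The other genes of both families were mostly silent. Of 10 further carbonic anhydrases, Car13 and Car15 reached a mean of 1 FPKM in a table, and of 8 further aquaporins, Aqp5, Aqp8 and Aqp9 did. Car13, a cytosolic isoform, held 31.4 ± 1.89 and 30.6 ± 1.66 FPKM (SD, n = 3) in D7 non-IR vehicle and TGFB1 libraries and 38.5 ± 0.317 and 38.7 ± 1.98 FPKM in D7 IR. At D11 IR Car13 rose from 27.4 ± 1.49 to 45.8 ± 3.35 FPKM (limma adjusted p 3.30e-05, log2 change 0.72). Aqp5, a water channel of secretory glands, rose in D7 non-IR from 1.18 ± 0.0883 to 8.10 ± 0.385 FPKM (limma adjusted p 7.43e-10, log2 change 2.06). In D7 IR Aqp5 was at most 0.165 FPKM in every library, and the difference of effects was −1.98 (limma adjusted p 6.20e-09). At D11 IR Aqp5 held 0, 0 and 0.0447 FPKM under vehicle and 0.517, 0.736 and 5.45 FPKM under TGFB1, and the change did not pass (limma adjusted p 0.111), with 1 TGFB1 library far above the others. Aqp9, an aquaglyceroporin, rose in D7 IR from 0.0786 ± 0.0224 to 2.74 ± 0.500 FPKM (limma adjusted p 1.27e-07, log2 change 1.78). Aqp8 fell there from 1.39 ± 0.483 to 0.668 ± 0.0560 FPKM (log2 change −0.50, limma adjusted p 0.00688), and Car15 did not pass in D7 IR (log2 change −0.21, limma adjusted p 0.174). The filter kept Aqp9 in D7 IR through its TGFB1 libraries alone and Aqp8 through its vehicle libraries alone. Aqp5 passed the filter for the difference of effects through its D7 non-IR libraries alone. At D11 IR Aqp5 passed through its TGFB1 libraries alone.

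Vehicle levels of the 3 conditions were compared without a test, since they come from separately deposited tables. Between D7 IR and D7 non-IR vehicle, 3 of 9 members were at least 2-fold apart with no overlap, against 20.5% of all genes. Aqp3 was 81.6 times as high after irradiation, Car4 was 3.49 times as high and Car2 was 3.30 times lower. Car8, Car12, Aqp1 and Aqp4 were lower by 1.88, 1.74, 1.58 and 1.61 times, Aqp11 was 1.44 times as high, and Car9 overlapped (145 and 152 FPKM). The enterocyte list summed to between 3488 and 3632 FPKM in D7 non-IR vehicle and between 14506 and 15507 FPKM in D7 IR vehicle, and its part in the levels of Aqp3, Car4 and Aqp11 was not tested. Between D11 IR and D7 IR vehicle, 4 of 9 members were at least 2-fold apart with no overlap, against 10.3% of all genes. Aqp1 was 3.46 and Car2 2.35 times as high at D11, and Aqp3 was 19.9 and Car4 2.96 times lower. In both comparisons Aqp3 and Car4 passed the filter of a mean of 1 FPKM through their D7 IR vehicle libraries alone. Both counts of members therefore describe these genes only.

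Pathway genes around these enzymes and channels were read from lists. Of 22 acid-base transporters 16 were tested in each table, with 4 higher and 8 lower in D7 non-IR. The shares called here and in the 2 lists that follow stand against 68.2% (D7 non-IR), 75.5% (D7 IR) and 63.9% (D11 IR) of all genes. Those of the acid-base list lie above them in each table, in a list chosen with earlier results known. In D7 IR 6 acid-base transporters were higher and 8 lower, and at D11 IR 5 were higher and 8 lower. Slc26a6, an apical chloride-bicarbonate exchanger, fell from 42.1 to 12.4 FPKM in D7 non-IR (log2 change −1.68, limma adjusted p 2.97e-10) and from 43.1 to 13.3 FPKM at D11 IR. Slc9a4, a sodium-proton exchanger, rose in all 3 tables, in D7 IR from 1.81 to 9.62 FPKM (log2 change 1.92, limma adjusted p 3.61e-08). Slc16a3, the lactate exporter MCT4, fell in D7 IR from 133 to 55.2 FPKM (log2 change −1.26, limma adjusted p 7.51e-08). Of 20 genes of salt and fluid transport 7 were higher and 10 lower in D7 non-IR. In D7 IR 10 of them were higher and 7 lower, with 7 higher and 10 lower at D11 IR. Ano1, a calcium-activated chloride channel, rose from 5.27 to 45.0 FPKM in D7 non-IR, from 4.49 to 40.1 FPKM in D7 IR and from 5.19 to 38.8 FPKM at D11 IR (largest limma adjusted p 4.67e-07). Slc5a1, the sodium-glucose cotransporter, fell in D7 non-IR from 213 to 42.5 FPKM (log2 change −2.30, limma adjusted p 4.90e-11). Of 9 genes of glycerol handling tested, 4 rose and 4 fell in D7 non-IR, 5 rose and 3 fell in D7 IR, and 1 rose and 4 fell at D11 IR. Dgat2, which makes triglyceride, rose in D7 IR from 108 to 250 FPKM (log2 change 1.21, limma adjusted p 4.43e-09), and Gpd1, which makes glycerol phosphate, fell at D11 IR from 236 to 122 FPKM (log2 change −0.94, limma adjusted p 9.39e-05).

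Genes with the most similar profile were found over the 18 bulk libraries, which share 3 tables and the treatment, so the correlations describe these libraries. For Aqp4 the closest was Me2 (Pearson r 0.985), for Aqp1 Cep89 (0.979), for Car12 Supt16 (0.987) and for Aqp3 Naa60 (0.988). For Car9 they were Clybl (0.965), Pcbd1 (0.942) and Aldoc (0.938), the last a glycolytic aldolase.

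In the single-cell time course after irradiation, counts were summed per library and given as CPM, the share of a library's UMIs on the scale usual in the field, with exact Poisson 95% intervals, which cover counting error only. There is 1 library per time and so no test. Aqp1 was 75.4 CPM (72.2 to 78.7) at 0 h, 43.9 (41.7 to 46.2) at 6 h, 29.9 (27.8 to 32.0) at 15 h and 21.1 (19.5 to 22.8) at 24 h. Aqp4 was 35.65 CPM (33.5 to 37.96), 20.3 (18.7 to 21.9), 13.7 (12.3 to 15.2) and 6.89 (5.99 to 7.88) at these times. Each step was lower than the one before it, and at 24 h the 0 h level was 3.57 times (Aqp1) and 5.17 times (Aqp4) that of the treated library. After thinning each cell to 2000 UMIs, 12.2% of cells held an Aqp1 UMI at 0 h and 4.01% at 24 h (unthinned 34.4% and 17.4%). Enterocyte-like cells, where Aqp1 was low, gave 2.7% at 0 h, at a median depth of 7914 UMIs against 8201.5 over the library.

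No member past the minimum of 10 CPM was 2-fold apart from 0 h at 6 h, where 1.64% of genes were. Below that minimum, Car8 was 2.74 and Car4 3.08 times lower at 6 h than at 0 h. Of the members past the minimum of 10 CPM, Aqp1 and Aqp4 were at least 2-fold lower at 15 h (3.74% of genes were 2-fold apart) and at 24 h (7.19%). For the 24 h comparison Aqp4 passed the minimum through the 0 h library alone. The other members that passed the minimum stayed within 2-fold of 0 h. Car9 was 41.0, 50.4, 54.1 and 48.7 CPM at 0, 6, 15 and 24 h, with no fall such as in the D7 IR bulk libraries. Dose, day and library type differ between these experiments. Aqp11 was 58.1, 56.3, 56.5 and 49.5 CPM, Aqp3 12.9, 6.94, 7.18 and 8.36 CPM, and Car12 9.95, 14.6, 7.64 and 7.90 CPM. Car8 was 5.16, 1.88, 3.54 and 10.2 CPM, lowest at 6 h and highest at 24 h, and Car2 was 9.25, 8.26, 9.89 and 11.1 CPM. Car4 had 13, 5, 2 and 0 UMIs, at least 4.85-fold lower at 24 h than at 0 h against a floor of 3 counts in the 24 h library.

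**Figure D4:**
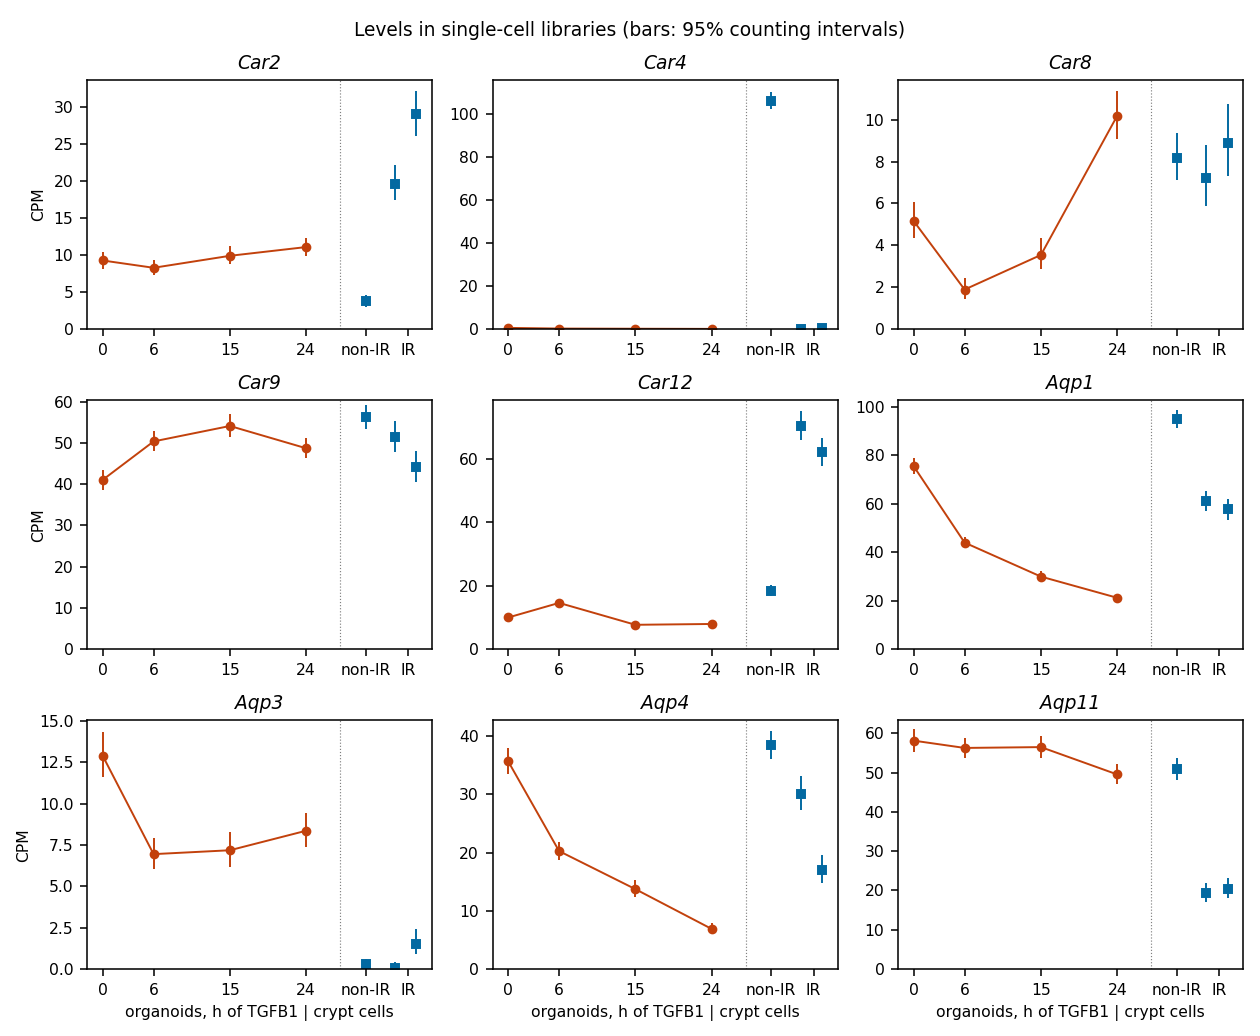
CPM (vertical axis, from 0) of 9 genes in the organoid libraries by hours of TGFB1 (circles, left of the dotted line) and in the crypt libraries (squares, non-IR and the 2 IR libraries), with 95% counting intervals. Aqp1 and Aqp4 were lower at each later time, and Car4 was 106 CPM in the non-irradiated crypt library and under 1 CPM in both irradiated ones.

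Cells were grouped by clustering with the members left out of the variable genes, and clusters were named from marker lists. In irradiated organoids at 0 h, Aqp1 was 180 CPM (164 to 196) in 340 stem-like cells, 121 (115 to 128) in 868 cycling cells and 10.5 (8.49 to 12.7) in 1111 enterocyte-like cells. Aqp4 was 87.5 (76.7 to 99.5), 62.9 (58.2 to 67.9) and 2.13 (1.30 to 3.30) CPM in the same cells. Among the named classes both channels were highest in stem-like, cycling and goblet-like cells, the last with 103 CPM of Aqp1 and 43.0 CPM of Aqp4. Their order among these classes depended on the clustering: at a finer resolution of 1.0 the stem-like class held 30 cells at 0 h, with Aqp4 at 59.6 CPM (33.4 to 98.4) against 62.1 in cycling cells. Within these classes the point values of both channels were lower at each later time, and every 24 h interval lay below its 0 h interval. The 6 h and 15 h intervals overlapped for both channels in each class, so counting error does not separate these times. Those of 15 h and 24 h overlapped for Aqp1 in each class, and in goblet-like cells the intervals overlapped at every step. Aqp1 in stem-like cells was 87.3 CPM (75.9 to 99.8) at 6 h, 77.2 (68.3 to 86.9) at 15 h and 60.6 at 24 h. Aqp4 in stem-like cells was 53.1, 41.7 and 18.3 CPM. In cycling cells Aqp1 was 72.4, 61.1 and 49.6 CPM and Aqp4 34.7, 30.1 and 19.5 CPM. Cycling cells made up 29.6, 31.8, 15.5 and 10.1% of kept cells at 0, 6, 15 and 24 h, and stem-like cells 11.6, 8.80, 15.3 and 14.7%. Unnamed clusters held 18.2, 21.7, 27.0 and 39.0% of cells.

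Aqp11, Aqp3 and Car9 were higher in enterocyte-like than in stem-like cells. Car9 was the broader: at 0 h enterocyte-like cells held 49.8% of its UMIs and cycling cells 24.8%. Unnamed cells had 49.1 CPM of Car9 (42.6 to 56.2), which overlaps the enterocyte-like interval below. At 0 h Aqp11 was 100.4 CPM (94.0 to 107) in enterocyte-like and 22.1 (16.9 to 28.5) in stem-like cells, and at 24 h it was 94.4 and 15.9 CPM. Aqp3 was 27.1 CPM (23.9 to 30.7) in enterocyte-like cells and 4 UMIs in all stem-like cells at 0 h. Car9 was 59.6 (54.8 to 64.8) and 21.2 (16.1 to 27.5) CPM in the 2 classes at 0 h and 70.9 and 14.9 CPM at 24 h. Car12 took the opposite place, with 26.1 CPM in stem-like, 17.3 in cycling and 0.640 in enterocyte-like cells at 0 h. At the finer resolution Car12 had 3 UMIs in the 30 stem-like cells (11.9 CPM, 2.46 to 34.9), below 17.8 CPM in cycling and 22.0 CPM in goblet-like cells. Car8 at 24 h was 30.3 CPM (25.7 to 35.6) in 240 regenerative-like cells, which held 48.4% of its UMIs, against 9.01 in stem-like and 1.28 in enterocyte-like cells. Goblet-like cells, at 20.7 CPM (9.93 to 38.1), overlapped the regenerative-like interval. The regenerative-like cluster was 0.477% of cells at 0 h and 10.8% at 24 h. Its leading genes were Anxa8 and Anxa1.

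**Figure D5:**
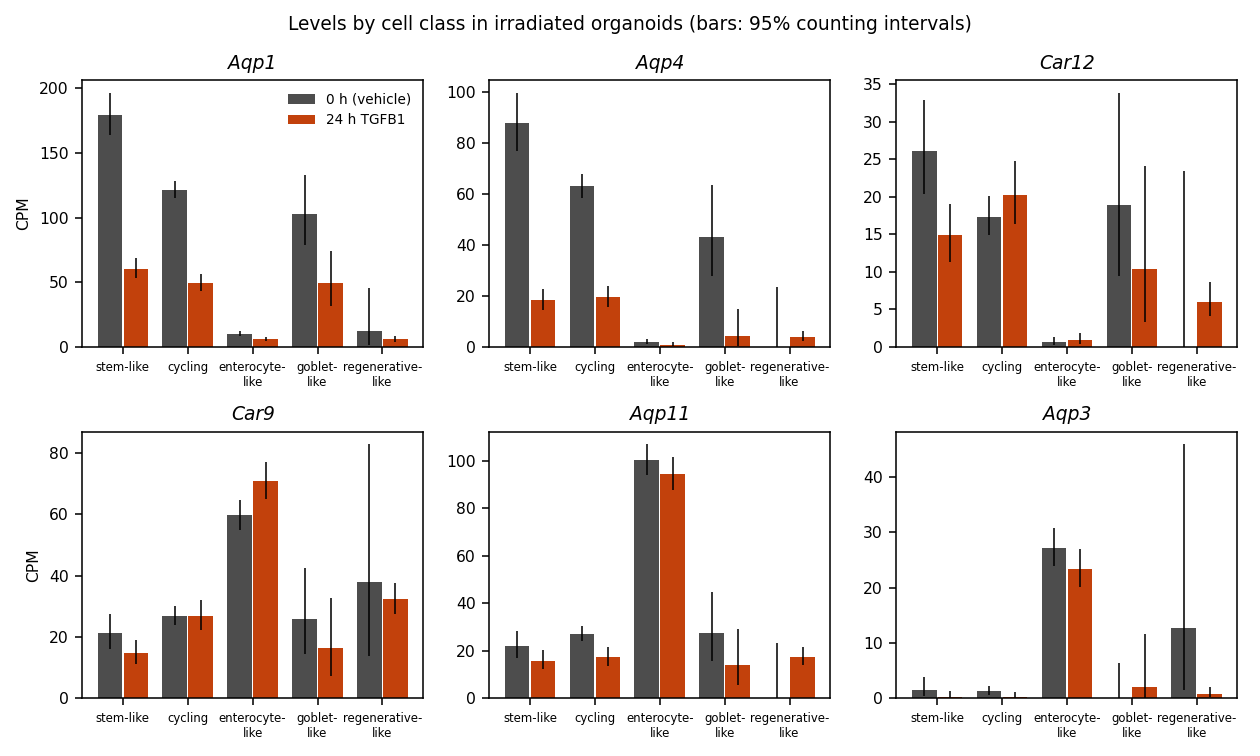
CPM (vertical axis, from 0) of 6 members in the named cell classes of irradiated organoids at 0 h (vehicle) and 24 h of TGFB1, with 95% counting intervals. At 0 h Aqp1, Aqp4 and Car12 were higher in stem-like and cycling than in enterocyte-like cells, and Aqp11, Aqp3 and Car9 in enterocyte-like cells. The regenerative-like class held 14 cells at 0 h, and the goblet-like cluster also had the enteroendocrine genes Neurog3 and Chga among its leading genes.

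In the Ki67-RFP+ crypt cells, Car4 was the member furthest apart. It was 106 CPM (2741 UMIs) in the non-irradiated library and had 2 and 6 UMIs in the 2 irradiated libraries. The ratio was 730.5 (95% counting interval 202 to 6035) against the first irradiated library and 219 (100.4 to 597) against the second. Both irradiated libraries were at least 2-fold apart from the non-irradiated one on the same side for 4 of the 7 members past 10 CPM, where 15.6% of all genes were: Car4 and Aqp11 lower, Car2 and Car12 higher. Car4 passed the minimum of 10 CPM through the non-irradiated library alone and Car2 through the irradiated libraries alone. The count of 4 therefore describes these genes only. Aqp11 was 50.9 CPM against 19.3 and 20.5, Car2 was 3.73 against 19.7 and 29.0, and Car12 was 18.4 against 70.5 and 62.1 CPM. Aqp1 was 94.8 against 60.9 and 57.6 CPM and Aqp4 38.5 against 30.1 and 17.1 CPM. Car9 was 56.3 against 51.5 and 44.1 CPM, Car8 8.17 against 7.21 and 8.91 CPM, and Aqp3 under 2 CPM in all 3.

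The summed level of 12 enterocyte markers was 4524 CPM in the non-irradiated library and 1716 and 3731 CPM in the irradiated ones. Reg3g, an antimicrobial lectin in that list, went the other way (142 CPM against 885 and 1129), and without it, a choice made after seeing the data, the sums were 4381 CPM against 832 and 2602. Of the 12 markers 7 were lower in both irradiated libraries, among them Fabp1, a fatty acid binding protein (1327 CPM against 75.9 and 363), and 1 was higher in both. The part of these markers in the Car4 levels was not tested. Endothelium can also express Car4. The sum of 5 endothelial markers was 6.3, 10.8 and 11.8 CPM, nearly all of it Pecam1 (6.18, 10.7 and 11.6 CPM), while Cdh5 had 0 UMIs in the 3 crypt libraries, and their part was not tested. Within the non-irradiated library Car4 was 245 CPM (233 to 258) in 386 enterocyte-like cells, 40.5 (27.6 to 57.6) in 68 goblet-like and 24.8 (20.8 to 29.4) in 455 stem-like cells. Unnamed clusters, whose Car4 level is not given here, held 47.5% of the cells of that library and 42.6 and 29.0% of those of the irradiated ones. In the irradiated libraries the 9 and 34 enterocyte-like cells, which lay mostly in another cluster, and the 38 and 20 goblet-like cells had 0 Car4 UMIs. In goblet-like cells, a cluster with cells of all 3 libraries, Car12 was 10.5 CPM (4.52 to 20.6) without and 28.4 (16.8 to 44.9) and 33.2 (17.1 to 57.9) CPM with irradiation. The regenerative-like cluster had 359 and 437 cells in the irradiated libraries and none in the other, and the stem-like cluster lay in the non-irradiated library alone, so these classes and the libraries cannot be told apart. In regenerative-like cells Car12 was 63.8 and 59.7 CPM, Car2 30.8 and 29.1 CPM and Aqp4 10.4 and 7.17 CPM, against 31.3, 2.98 and 73.4 CPM in the stem-like cells of the non-irradiated library. A cluster of 8 immune-like cells had Car2 at 253 to 776 CPM and held 6.30% or less of its UMIs in each library.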

How the data were processed

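Bulk RNA-seq values are FPKM per gene as deposited by the authors, in 3 separate tables that may have been scaled separately. The submitters' processing notes name TopHat2 2.1.0 and Cuffnorm 2.2.1. The 7 single-cell matrices hold UMI counts deposited by the authors, partly fractional (estimated counts), and the same notes name STARsolo and STAR 2.7.10a. Here log2(FPKM + 1) was fitted, for genes averaging 1 FPKM or more over the compared libraries, with limma 3.58.1 (trend, robust), with two-sided p-values adjusted by Benjamini-Hochberg over all genes and a threshold of 0.05. The limma fit was tested on simulated data, and the other steps were not. Barcodes below 500 UMIs, below 250 genes or above 20% mitochondrial UMIs were dropped, doublets were not removed, and clusters (scanpy 1.11.5, Leiden resolution 0.6) were named from marker lists by a median marker fold of at least 2. Clusters with 5 or more pseudogene or noncoding names among their top 10 genes and no own marker stayed unnamed, a threshold set after seeing the data. Changes of 2-fold were read where CPM reached 10 in 1 of the libraries.

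The members and lists were chosen with earlier results of these data known. Pathway genes named are a selection from those of each list with the largest called changes, and others among these are not named. Like genes are those with the highest Pearson r. The alternatives were other scalings, pseudocounts, filters, fits, cell filters and clusterings, and leaving out each library. Chromatin accessibility libraries are not analysed here.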

Additional observations from a re-analysis of the deposited data

Results flagged for a closer look

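Each value here is a difference of 2 TGFB1 effects on log2(FPKM + 1), tested in 1 limma model and past an adjusted p of 0.05. With irradiation at D7 the effect was higher for Car8 (0.66, limma adjusted p 0.000140) and Aqp11 (0.29, limma adjusted p 0.00404). It was lower for Aqp4 (−1.22, limma adjusted p 3.93e-07), Car12 (−1.004, limma adjusted p 5.29e-06) and Car9 (−0.96, limma adjusted p 9.66e-09). Car9 is the member whose change had opposite signs in the 2 conditions, with every TGFB1 library above every vehicle library without irradiation and below it with irradiation.

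Between D11 and D7 after irradiation the effect was higher for Aqp3 (1.28, limma adjusted p 6.89e-06) and Car12 (1.23, limma adjusted p 1.65e-05). It was lower for Car9 (−0.81, limma adjusted p 0.0126), Car2 (−0.78, limma adjusted p 0.000292) and Aqp11 (−0.66, limma adjusted p 0.00230). Treatment had ended days before D11, so day and time since treatment cannot be told apart.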

How the results depend on the processing

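Of 573 values of single members recomputed in the 5 tests, 547 kept their direction and their side of the threshold, 20 passed it only under the alternative, 3 no longer passed and 3 turned direction. The 3 that no longer passed, at an unchanged size, did so with all 18 libraries in 1 fit: Car12 and Car9 in D7 non-IR (limma adjusted p 0.190 and 0.0922) and Aqp11 for the difference with irradiation (limma adjusted p 0.0952). The 3 that turned direction were not called in the report. Leaving out 1 library gave −0.11 to 0.03 for Aqp3 in D7 IR (0.0287 without TGFB1 replicate 3), −0.01 to 0.21 for Car12 at D11 IR (−0.0118 without vehicle replicate 3, and called at limma adjusted p 0.0346 without vehicle replicate 1) and −0.23 to 0.00485 for Car2 at D11 IR (0.00485 without TGFB1 replicate 3). Of 174 recomputed counts 173 stayed within 1.5 times the reported count, and the exception was the difference between days, called in 8 members rather than 5 with all 18 libraries in 1 fit. The cause was not tested.

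The labels do not say whether replicate numbers pair the libraries. Deviations from group means correlated at −0.167 to 0.257 over 9 same-numbered pairs and at −0.261 to 0.255 over 18 other-numbered ones. With so few libraries per group these values cannot decide it. With the replicate number as a block, 7, 8, 6, 5 and 7 members were called in the 5 tests, and the 2 additions were the day differences of Aqp1 (limma adjusted p 0.0334) and Aqp4 (limma adjusted p 0.0147). All genes called with the block were 7701, 8417, 7351, 5964 and 7396. In single cells, 48 of 70 shares of cells moved when cells were thinned to 1000 UMIs and 31 of 350 class levels moved at Leiden resolution 1.0. The read depth of the bulk libraries is unknown, which leaves the counting error of Car4 and of Aqp3 in D7 non-IR unknown too.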
